A study of Mus musculus with 67 samples.

Results

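The RNA of 10 factors that store or remove maternal messenger RNA was followed through 5 stages of mouse preimplantation development, in a control and a light group. The factors were chosen by name, as the rows of the expression table whose symbol is Btg4, Cnot6l, Cnot7, Pabpn1l, Zar1, Zar1l, Ybx2, Cpeb1, Igf2bp2 or Zfp36l2. Earlier results of these data were known when the choice was made. All 10 symbols were found among the 26414 genes of the table.

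An oocyte fills its cytoplasm with messenger RNA that is kept silent and stable, and the embryo destroys most of it while its own genome is switched on. Storage relies on RNA-binding proteins. YBX2 coats maternal messages in germ cells, ZAR1 and ZAR1L hold them in the oocyte cytoplasm, CPEB1 binds a U-rich element of the 3′ UTR and controls the length of the poly(A) tail, and IGF2BP2 binds and stabilises its targets. Decay starts with removal of the tail by the CCR4-NOT complex, whose catalytic subunits include CNOT6L and CNOT7. BTG4 and PABPN1L bring that complex to maternal messages, and ZFP36L2 brings it to messages with AU-rich elements.

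Libraries were made by SMART-seq2, which primes from the poly(A) tail, from C57BL/6 embryos obtained by in vitro fertilization from 6-week-old females and 10-week-old males. The light group was exposed as 2-cell embryos to 5000 lx for 6 h and then returned to the dark, whereas the control group was kept at 0 lx. There were 33 control libraries (7 of the 2-cell stage, 6 of the 4-cell stage, 4 of the 8-cell stage, 13 of morulae and 3 of blastocysts) and 34 light libraries (6, 8, 8, 6 and 6 of the same stages). Each library was described as a single cell picked from a dissociated embryo, and the labels number the embryos. Nothing says whether libraries of a group come from cells of the same embryo or share parents or a culture, so that n counts libraries of single cells and p-values measure the spread between these libraries.

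The libraries held 836010 to 8551673 reads, of which 54.0% to 89.3% lay on CT010467.1 and Gm42418, a pair of genes known to collect reads of ribosomal RNA. Levels are therefore given as reads per 1000000 reads on all other genes (CPM), and 1 read was worth 0.349 to 3.14 CPM. A gene was called changed when its adjusted p (limma on log2(CPM + 1), Benjamini-Hochberg over all genes tested) was under 0.05 and its fold change at least 2. Fold changes are on the log2(CPM + 1) scale, which understates the change of genes near 0. A shorter tail and less RNA cannot be told apart in libraries primed from the tail. In 18 libraries, all of them control, the median correlation with the other group of the stage was higher than with their own, in 5 of 6 at the 4-cell stage, 12 of 13 among morulae and 1 of 3 among blastocysts. These correlations were of log2(CPM + 1) over genes above 1 CPM in at least 3 of the 67 libraries. The gap was largest in control 4-cell library 3 (r = 0.887 against 0.851), and results that rest on this library are also given without it.

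The messages of some of these factors hold, in their own 3′ UTR, matches to elements that other factors bind. Coordinates and sequences are those of GENCODE M21 on GRCm38, matched by symbol, and none comes from the deposited table, for which the submitters' processing notes name mm9. Btg4 lies at chr9:51060901-51119875 (+), Cnot6l at chr5:96070333-96164171 (-), Cnot7 at chr8:40492540-40515847 (-) and Ybx2 at chr11:69935796-69941605 (+), and all sites shown lie in 3′ UTR exons. The element bound by CPEB1 was searched as TTTTAT or TTTTAAT on the sense strand of the last 150 bases of the 3′ UTR, where 3572 of 15021 genes (23.8%) had at least 1 match. Among the 10 factors, matches lay in that window in Btg4, which had 2, and in Ybx2, which had 1. Neither had a poly(A) signal, AATAAA or ATTAAA, in the window, whereas 2994 of 15021 genes (19.9%) had both an element and such a signal there. Binding of CPEB1 to these matches was not tested. Over whole 3′ UTRs, where 8390 of 16874 genes (49.7%) had TTTTAT, it was also found in Cnot7 (9 matches), Zfp36l2 (4), Cnot6l (2) and Igf2bp2 (1). Of these only Cnot6l was called between the groups at the 2-cell stage. Btg4 had 2 AATAAA signals upstream of the window. A link between the element and the differences of the factors was not tested. The sites are shown because Btg4 and Ybx2 were among the factors that differed most between the groups, and capitals mark the element. They lie at chr9:51119748-51119777 (+), chr9:51119797-51119826 (+) and chr11:69941532-69941561 (+).
Btg4, upstream site: gtaaccagtctaTTTTATaaatctgttaaa
Btg4, downstream site: agataaatccctTTTTATgtctttttaaaa
Ybx2: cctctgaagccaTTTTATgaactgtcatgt

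The AU-rich element TATTTAT, to which proteins of the ZFP36 family bind, was found 3 times in the 3′ UTR of Zfp36l2 itself, 1822 bases long. Of 4333 genes with a 3′ UTR at least that long, 415 (9.58%) had 3 or more matches. The sites are shown because this factor binds such elements, with the element in capitals. They lie at chr17:84184913-84184942 (-), chr17:84184865-84184894 (-) and chr17:84184679-84184708 (-).
Zfp36l2, site nearest the stop codon: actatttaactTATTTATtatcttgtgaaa
Zfp36l2, middle site: tgtccatactgTATTTATcgagtatgatga
Zfp36l2, site nearest the tail: attgtatgtaaTATTTATttcattaatttc
Cnot7 had a match to the Pumilio motif TGTANATA 32 bases before the end of its message, in a window where 6.41% of genes had a match. It lies at chr8:40492553-40492582 (-), and its end overlaps a poly(A) signal, AATAAA.
Cnot7: tttaaagctttTGTAAATAaaggcttcaaa
Cnot7 also had 1 match to TATTTAT in its 3′ UTR of 1447 bases, and no other factor had one. The windows for the element bound by CPEB1 were shorter than 150 bases in Zar1, Zar1l and Cpeb1, whose annotated 3′ UTRs have 146, 14 and 61 bases.

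In control 2-cell embryos the factors covered a wide range of levels. Per kb of exon, Btg4 had a mean of 650 CPM and ranked 34 among 26327 genes. Ybx2 followed with 106 CPM per kb, Cnot7 with 85.3, Cnot6l with 47.6 and Igf2bp2 with 23.7. Cpeb1 (15.3), Zar1l (11.9), Zfp36l2 (8.38), Pabpn1l (5.35) and Zar1 (5.34) were lower, so that the decay adaptor Btg4 stood far above the storage factors Zar1 and Zar1l in this poly(A)-primed RNA. In light 2-cell embryos Btg4 ranked 81 with 283 CPM per kb, while Ybx2 ranked 6155 with 8.31 and Cnot6l ranked 4727 with 12.6. The spans of Btg4, Cnot7, Pabpn1l, Zar1l, Cpeb1 and Zfp36l2, introns included, overlap those of other genes, such as Zdhhc2 at Cnot7 and Layn at Btg4. The libraries do not mark the strand, and Gm15933 at Zar1l lies on the same strand. Reads from any stretch that is exon of both genes cannot be assigned to either, and how many there were was not tested.

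**Figure D1:**
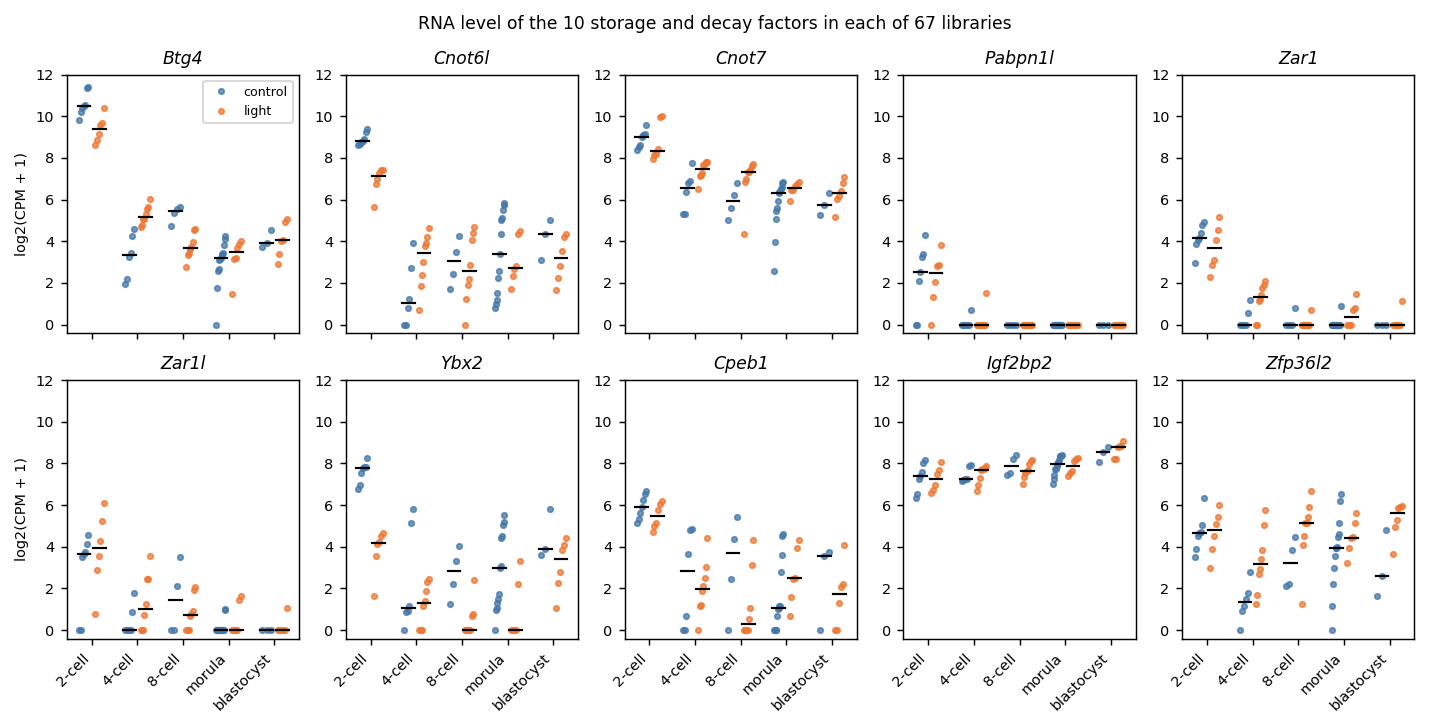
Level of each of the 10 factors, as log2(CPM + 1), in every library of the 5 stages (blue, control; orange, light), with dots sorted by value within a group and a black line at the group median. Btg4, Cnot6l and Ybx2 are lower in light than in control at the 2-cell stage, most factors are far lower from the 4-cell stage on, and Igf2bp2 stays at medians of 150.02 to 443 CPM.

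At the 2-cell stage, in which the exposure took place, the light group had less RNA of the decay adaptor Btg4, of the deadenylase subunit Cnot6l and of the storage protein gene Ybx2. These 3 of 10 factors were called, all lower, where 12.0% of 18090 genes tested were called in either direction and 5.02% were called lower. The other 7 were not called. Over the 10 factors the median log2 fold change was -0.29, beside 0.05 over all genes tested.

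Ybx2 had the largest difference. Its levels lay between 108 and 307 CPM in the 7 control libraries, with a median of 220.3, and between 2.09 and 24.6 CPM in the 6 light libraries, with a median of 17.2. The groups did not overlap in this gene or in Cnot6l, as in 4.81% of genes tested. The mean was 199.6 ± 68.1 CPM (SD, n = 7) in control and 15.7 ± 8.18 CPM (SD, n = 6) in light. The log2 fold change was -3.77 ± 0.44 (SE, adjusted p = 3.1e-06, limma).

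Cnot6l, a catalytic deadenylase subunit, had 393 to 667 CPM in control libraries (median 442) and 49.5 to 169.8 CPM in light libraries (median 141). No light library reached the lowest control library. Its log2 fold change was -1.99 ± 0.28 (SE, adjusted p = 2.41e-05, limma), from a mean of 491 ± 106 CPM (SD, n = 7) to 129.6 ± 46.5 CPM (SD, n = 6).

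Btg4 had 905 to 2700.5 CPM in control libraries (median 1439.8) and 389.6 to 1345 CPM in light libraries (median 658). The groups overlapped. The mean was 1661 ± 697 CPM (SD, n = 7) in control and 725 ± 346 CPM (SD, n = 6) in light, a log2 fold change of -1.22 ± 0.26 (SE, adjusted p = 0.00191, limma).

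Cnot7, the other deadenylase subunit, was not called. It had 334 to 759.7 CPM in control libraries (median 504) and 246 to 1047 CPM in light libraries (median 319), and its log2 fold change was -0.12 ± 0.31 (SE, adjusted p = 0.834, limma). The light libraries were split, with libraries 15 and 16 at 992 and 1047 CPM and the other 4 between 246 and 348 CPM. Libraries 15 and 16 also had the highest Btg4 levels of the light group (1345 and 827 CPM). Their median correlations with their group were the lowest (r = 0.844 and 0.831, the other 4 at 0.880 to 0.885). Library 16 was the shallowest of all, with 318176 reads outside CT010467.1 and Gm42418. Cpeb1 (-0.45 ± 0.40, SE), Zar1 (-0.50 ± 0.60), Igf2bp2 (-0.09 ± 0.33), Pabpn1l (-0.08 ± 0.83), Zfp36l2 (-0.01 ± 0.55) and Zar1l (1.00 ± 0.88) had log2 fold changes that were not called. Adjusted p-values of these 6 factors lay between 0.501 and 0.995.

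Ratios between factors within a library do not depend on how libraries are scaled. Per kb of exon, the level of Cnot6l was 0.407 to 0.927 of that of Cnot7 in control 2-cell libraries and 0.0882 to 0.33 in light 2-cell libraries. The groups did not overlap in this ratio. Ybx2 was at 0.983 to 1.82 of Cnot7 in control and at 0.0262 to 0.272 in light, again without overlap. Btg4 was at 15.0 to 96.2 times Igf2bp2 in control and at 6.39 to 31.5 times in light, and there the groups overlapped. These ratios were chosen after the levels were known and are given without a test.

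**Figure D2:**
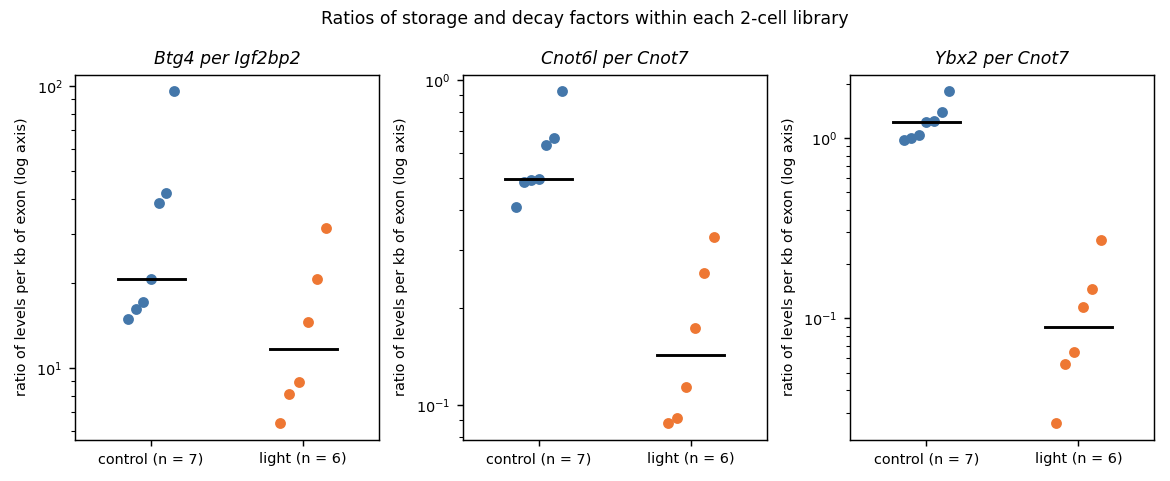
Ratio of the levels of a pair of factors, each per kb of exon, in every 2-cell library on a log axis, with dots sorted by value and a line at the median. The ratios of Cnot6l and of Ybx2 to Cnot7 do not overlap between the 7 control and 6 light libraries, with medians of 0.496 and 0.143 for Cnot6l and of 1.23 and 0.09 for Ybx2.

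The ratio of Gm42418 to CT010467.1 reads also separated the 2-cell groups, at 2.34 to 4.03 in control and 1.58 to 1.77 in light. The ratio also separated the groups at the 8-cell stage (2.01 to 2.34 in control and 1.52 to 1.71 in light) and in morulae (2.34 to 4.14 and 1.49 to 1.67), and overlapped among blastocysts. At the 4-cell stage only control library 3, at 1.61, lay within the light range of 1.43 to 1.63. The other control 4-cell libraries lay at 1.80 to 4.55. No batch is named in the labels. The exposure and whatever sets this ratio cannot be told apart at the 2-cell, 8-cell and morula stages or in the steps that use them. The same holds at the 4-cell stage, but for control library 3. A list of 22 genes of oocyte maternal RNA moved the same way as the 3 factors. Its summed level was 5129 to 11195 CPM in control 2-cell libraries and 2399 to 5069 CPM in light ones, none of its genes was at 0 in either group, and its part in the result was not tested. Of its 21 genes tested, 6 were called lower and 0 higher, with a median log2 fold change of -0.55. Bmp15, an oocyte growth factor, was lower by 2.13 on the log2 scale (-2.13 ± 0.24, SE, adjusted p = 1.34e-06, limma).

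Between the 2-cell and the 4-cell stage nearly all of the factors lost most of their RNA in the control group, where 9 of 10 were called, all lower. Of 17247 genes tested there, 47.9% were called and 30.2% were called lower. In the light group 8 of 10 were called, all lower, and of 17257 genes tested 35.1% were called and 24.2% were called lower. The median log2 fold change over the 10 factors was -3.45 in control and -2.49 in light, beside -0.50 and -0.33 over all genes.

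The decay factors Btg4 and Cnot6l had the largest log2 fold changes of the 10 factors in control embryos, on a scale that understates the low Pabpn1l and Zar1. The 6 control 4-cell libraries held 2.91 to 23.0 CPM of Btg4 (median 9.17), so that the mean was 0.661% of that at the 2-cell stage. The log2 fold change was -7.32 ± 0.43 (SE, adjusted p = 8.53e-11, limma). Cnot6l was at 0 in 2 of these libraries and reached 14.3 CPM in library 4, with 0.747% of the 2-cell mean left and a log2 fold change of -7.47 ± 0.57 (SE, adjusted p = 2.71e-09, limma).

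In the light group these losses were smaller. Btg4 was at 25.1 to 63.8 CPM in the 8 light 4-cell libraries (median 35.4), 5.41% of the light 2-cell mean, with a log2 fold change of -4.11 ± 0.30 (SE, adjusted p = 5.59e-11, limma). Cnot6l was at 0.608 to 23.9 CPM (median 9.95), 7.94% of the 2-cell mean, with a log2 fold change of -3.86 ± 0.54 (SE, adjusted p = 3.16e-06, limma). In both groups the 2-cell and 4-cell libraries did not overlap in either gene, as in 21.9% of genes in control and 12.6% in light.

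The difference between the groups in this change was itself tested, as an interaction. It was called for 2 of 10 factors, both with the smaller loss in light, where 4.06% of 20125 genes were called and 1.94% were called in that direction. Btg4 had a difference of 3.20 ± 0.53 on the log2 scale (SE, adjusted p = 0.000877, limma) and Cnot6l of 3.60 ± 0.81 (SE, adjusted p = 0.00934, limma). Without control 4-cell library 3 the differences were 3.40 and 3.56, and both stayed past the threshold. The 2-cell libraries enter this difference as well as the comparison of light with control at that stage, so the lower starting level in light is a part of it. Ybx2 (2.60 ± 1.04, adjusted p = 0.148) and Zfp36l2 (1.98 ± 0.94, adjusted p = 0.236) had differences of the same sign that were not called by limma.

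**Figure D3:**
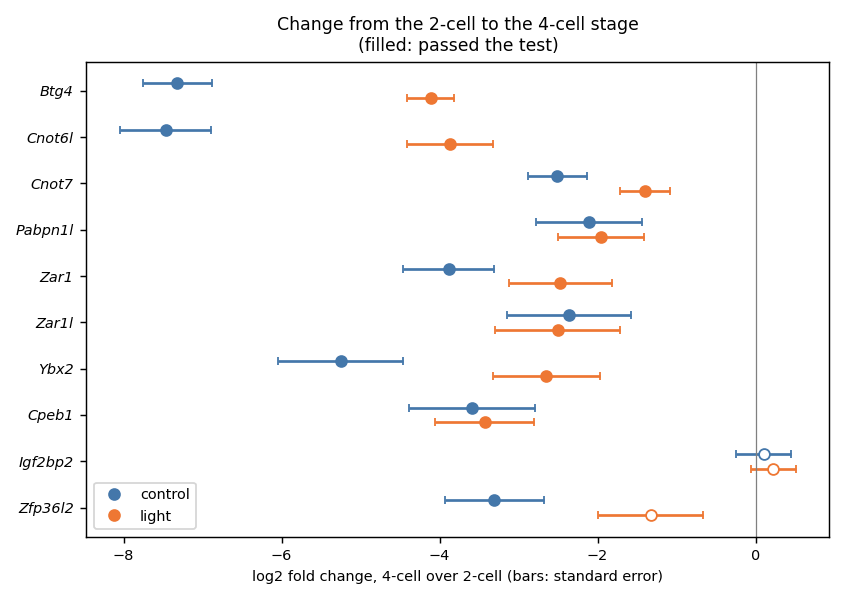
Log2 fold change of each factor from the 2-cell to the 4-cell stage in control (blue) and light (orange), with standard errors and filled dots where the change was called. Igf2bp2 lies at 0.10 in control and 0.23 in light, while Btg4 lies at -7.32 and -4.11 and Cnot6l at -7.47 and -3.86.

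Among the other decay factors, Cnot7 kept more of its RNA. Its mean at the 4-cell stage was 20.1% of that at the 2-cell stage in control (log2 fold change -2.51 ± 0.38, SE) and 32.4% in light (-1.40 ± 0.31). Both were called, and the 2-cell and 4-cell libraries did not overlap in either group. Pabpn1l, a poly(A)-binding partner of Btg4, was low already at the 2-cell stage, at 0 to 18.4 CPM in control and 0 to 13.0 CPM in light. At the 4-cell stage it had 1 read in the 6 control libraries together and 4 reads in the 8 light libraries. Scaled to the summed depth, that 1 read was 1.66% of the control 2-cell level (95% exact interval 0.0414% to 9.53%, counting error only).

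Zfp36l2, which recruits the deadenylase to AU-rich messages, fell in control and was not called in light. It had 10.3 to 79.5 CPM in control 2-cell libraries (median 24.0) and 0 to 5.89 CPM at the 4-cell stage (median 1.53), without overlap and with a log2 fold change of -3.31 ± 0.63 (SE, adjusted p = 0.000202, limma). In light it went from 6.98 to 62.9 CPM at the 2-cell stage (median 27.4) to 1.40 to 53.4 CPM at the 4-cell stage (median 8.16), with overlap and a log2 fold change of -1.33 ± 0.66 (SE, adjusted p = 0.114, limma). Light 4-cell library 7 was the highest of its group, and without it the value was -1.68 with an adjusted p of 0.0459.

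The storage factors were lost as well, with 1 exception. Zar1, which assembles maternal messages in the oocyte, had 6.66 to 29.4 CPM in control 2-cell libraries and at most 1.24 CPM in control 4-cell libraries, where 4 of 6 held no read (log2 fold change -3.88 ± 0.57, SE). In light it went from 3.84 to 34.8 CPM to at most 3.31 CPM (-2.47 ± 0.65), and the stages did not overlap in either group. Its 3 reads in the control 4-cell libraries were 1.67% of the 2-cell level (95% exact interval 0.341% to 4.93%). Zar1l, the paralog of Zar1, was lower by 2.36 ± 0.78 in control and 2.50 ± 0.79 in light (log2 scale, SE), with overlapping stages in both. At the 2-cell stage it was at 0 in 2 of 7 control libraries and at 68.7 CPM in light library 10.

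Ybx2 and Cpeb1 varied among control 4-cell libraries. Ybx2 was at 54.9 and 34.2 CPM in libraries 1 and 2 and at 0 to 1.24 CPM in the other 4, with a log2 fold change from the 2-cell stage of -5.25 ± 0.79 (SE, adjusted p = 1.55e-05, limma). Libraries 1 and 2 also had the highest ratios of Gm42418 to CT010467.1 reads of their group (4.55 and 4.35, the others 1.61 to 1.98). They had the fewest genes above 1 CPM (9484 and 9656, the others 11048 to 12078) and the lowest levels of Btg4 and Cnot7. What sets these libraries apart was not tested. In light Ybx2 went from a median of 17.2 to 1.44 CPM (-2.65 ± 0.67). Cpeb1, the CPE-binding protein, was at 11.6 to 28.0 CPM in libraries 2, 4 and 6 and at 0 to 0.621 CPM in libraries 1, 3 and 5, so that library 2 alone was among the highest in both genes. Its log2 fold change was -3.59 ± 0.80 in control and -3.43 ± 0.63 in light, and the difference of 0.16 ± 1.01 was not called (adjusted p = 0.956, limma).

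Igf2bp2 was the exception. It had 81.3 to 288 CPM at the 2-cell stage and 141 to 238 CPM at the 4-cell stage in control (log2 fold change 0.10 ± 0.35, SE, adjusted p = 0.821, limma), and 93.3 to 267 and 101 to 234 CPM in light (0.23 ± 0.28, adjusted p = 0.558).

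At the 4-cell stage the order of the groups in Btg4 was the opposite of that at the 2-cell stage. Each of the 8 light libraries held more Btg4 than each of the 6 control libraries, at 25.1 to 63.8 against 2.91 to 23.0 CPM. The mean was 39.2 ± 13.1 CPM (SD, n = 8) in light and 11.0 ± 8.05 CPM (SD, n = 6) in control. The log2 fold change was 1.98 ± 0.53 (SE, adjusted p = 0.047, limma), which made Btg4 the only called factor of the 9 tested, where 2.15% of 15014 genes were called, 1.69% were called higher and 0.819% had groups without overlap. The call lay close to the threshold. The value was 1.72 to 2.25 with any 1 library left out, but the adjusted p was over 0.05 in 12 of these 14 fits, all but those without control library 3 or 6, and with edgeR on the recovered reads. Without control library 3, which stood at 18.1 CPM, the value was 2.18 (adjusted p = 0.0165).

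Of the other factors at the 4-cell stage, Cnot6l (1.61 ± 0.81, SE), Cnot7 (0.99 ± 0.37), Zfp36l2 (1.97 ± 0.79), Zar1 (0.91 ± 0.48) and Zar1l (0.86 ± 0.60) had log2 fold changes above 0 that were not called. Ybx2 (-1.17 ± 0.86) and Cpeb1 (-0.29 ± 0.91) were below 0 and were not called either. The median over the 9 factors tested was 0.91, beside 0.17 over all genes.

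The order of the groups in Btg4 turned again at the 8-cell stage. Btg4 had 25.4, 39.8, 46.3 and 49.0 CPM in the 4 control libraries and 5.80 to 23.0 CPM in the 8 light libraries (median 11.7). The groups did not overlap, as in 5.61% of genes tested, but the log2 fold change of -1.58 ± 0.59 (SE, adjusted p = 0.0953, limma) was not called. From the 4-cell to the 8-cell stage, the control libraries moved from at most 23.0 to at least 25.4 CPM (log2 fold change 2.04 ± 0.85, SE, adjusted p = 0.224, limma), and the light libraries from at least 25.1 to at most 23.0 CPM (-1.52 ± 0.39, adjusted p = 0.0303). The stages did not overlap in either group, as in 4.63% of genes in control and 0.580% in light. In control none of 8 factors was called in this step, by limma or edgeR (1.86% of 13639 genes; Btg4 had an unadjusted p of 0.024), and in light Btg4 was the only called factor of 9 (2.39% of 15678 genes were called and 1.56% were called lower). The light call was lost without light 4-cell library 1, 7 or 11, with values of -1.41, -1.48 and -1.46. The difference between the groups in this step was -3.56 ± 0.74 (SE, adjusted p = 0.0031, limma), and Btg4 was the only factor of 9 tested with such a call, where 4.78% of 17381 genes were called and 2.96% were called in the negative direction. Without control 4-cell library 3 it was -3.76. From the 8-cell stage to the morula none of the factors had such a call by limma or edgeR (2.41% of 18387 genes), and the unadjusted p was under 0.05 for Btg4 (p = 0.0477) and Cpeb1 (p = 0.0346). These steps share their libraries with the comparisons of light and control at the same stages.

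Genes of the 2-cell stage also had higher levels in control 8-cell than in control 4-cell embryos. The summed level of 19 genes that are transcribed transiently at the 2-cell stage was 23.3 to 212 CPM in control 4-cell and 378 to 928 CPM in control 8-cell libraries, without overlap, and 86.1 to 837 and 146 to 447 CPM in light 4-cell and 8-cell libraries. At the 8-cell stage 2 of its 13 genes tested were called lower in light and 0 higher, and Zscan4a and Duxf3 were at 0 in all control 8-cell libraries. Of 19 oocyte genes tested at the 8-cell stage, 2 were called lower in light, Bmp15 (63.6 to 18.2 CPM) and Tcl1 (54.8 to 9.96 CPM), and 1 higher, Khdc3, while the summed level of the list overlapped (2516 to 3490 CPM in control and 2731 to 4372 CPM in light). Of 8 trophectoderm genes 3 were called higher, Lrp2, Krt8 and Krt18, and 0 lower, with summed levels of 115 to 245 CPM in control and 109 to 315 CPM in light. Of 9 genes of the inner cell mass and pluripotency 3 were called higher, Gata6, Pou5f1 and Dppa5a, and 0 lower, with sums of 634 to 709 CPM in control and 719 to 2409 CPM in light, without overlap. The part of these lists in the results for Btg4 and the other factors at the 8-cell stage was not tested.

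At the 8-cell stage 0 of the 8 factors tested were called by limma or edgeR, where 8.49% of 14728 genes were called by limma. The unadjusted p was under 0.05 for Btg4 (p = 0.0135) and Ybx2 (p = 0.00481). Ybx2 came closest, with 1.41, 3.71, 8.82 and 15.5 CPM in control and 0 to 4.36 CPM in light, where 5 of 8 libraries held no read. Its log2 fold change was -2.23 ± 0.71 (SE, adjusted p = 0.051, limma), and it was called without control library 1 (-2.71) or without light library 8 (-2.50), the light library that was highest in Ybx2. Cnot7 had 31.7, 47.9, 74.3 and 110.2 CPM in control and a median of 159 CPM in light. Light library 8 stood at 19.1 CPM and the other 7 between 112 and 211 CPM. With all libraries the log2 fold change was 1.02 ± 0.50 (adjusted p = 0.219), and without library 8 it was 1.39 (adjusted p = 0.0151), so that the call turned on this library.

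In morulae and blastocysts 0 factors were called between light and control, of 8 and 7 tested, beside 1.59% of 16169 and 1.90% of 14110 genes. Both results came from limma, and edgeR called none either. At an unadjusted p under 0.05 lay Ybx2 in morulae (-1.96 ± 0.89, p = 0.0354) and Zfp36l2 in blastocysts (2.24 ± 0.76, p = 0.00769). Zfp36l2 had 2.15, 5.13 and 27.2 CPM in the 3 control blastocysts and 11.6 to 61.2 CPM in the 6 light blastocysts. Control blastocyst 3 was the only control within the light range, and without it the value was 3.13 (adjusted p = 0.0343). Without control blastocyst 1 it was 1.55 (adjusted p = 0.543). The summed level of 14 trophectoderm genes separated the blastocysts, at 1359 to 11198 CPM in control and 12093 to 16645 CPM in light, with Krt19 at 0 in control. Of these genes 3 were called higher in light and 0 lower. Of 12 genes of the inner cell mass and pluripotency 2 were called lower in light, Nanog (-3.98 ± 0.76, SE) and Spp1 (-6.79 ± 1.12), and 0 higher, with summed levels of 1831 to 6151 CPM in control and 2136 to 3452 CPM in light. The libraries of the groups thus differed in genes of both lineages, and the part of these genes in the values of the factors was not tested.

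**Figure D4:**
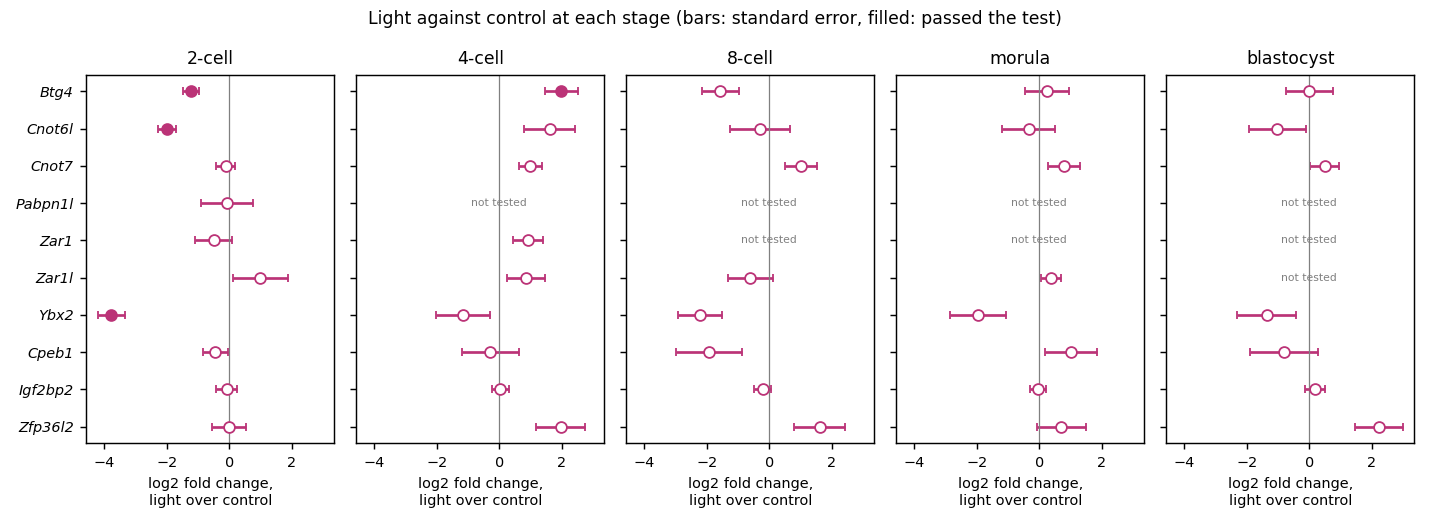
Log2 fold change of light over control for each factor at the 5 stages, with standard errors and filled dots where the difference was called (Btg4, Cnot6l and Ybx2 at the 2-cell stage and Btg4 at the 4-cell stage). Btg4 lies at -1.22, 1.98 and -1.58 at the first 3 stages, on alternating sides of 0.

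After the 4-cell stage Pabpn1l, Zar1, Zar1l and Btg4 stayed low but did not all stay at the same level. Pabpn1l had 0 reads in all 40 libraries from the 8-cell stage on, which allows at most 0.0681 CPM over their 44079065 reads (3 reads, counting error only). Zar1 had 7 reads in all, in 7 of the 40 libraries, and Zar1l had 36 reads in 12 libraries. Of these Zar1l reads, 19 were in control 8-cell embryos, at 0, 0, 3.37 and 10.4 CPM, and 2 in 13 control morulae. Btg4 was still detected in 39 of the 40 libraries, at medians of 8.33 CPM in control morulae, 10.0 CPM in light morulae, 14.0 CPM in control blastocysts and 15.4 CPM in light blastocysts.

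From the 8-cell stage to the morula, Btg4 was the only factor called in control (-2.34 ± 0.76, SE, adjusted p = 0.0358, limma), where 15.2% of 15710 genes were called and 8.96% were called lower. The 13 control morulae held 0 to 18.1 CPM, under all 4 control 8-cell libraries, and the groups did not overlap, as in 5.84% of genes. The call was lost when any 1 of the 4 control 8-cell libraries was left out, with adjusted p-values of 0.0546 to 0.110, and with edgeR. Zar1l (-1.26 ± 0.50, adjusted p = 0.092, limma) was called without control 8-cell library 1 or 3, which held no Zar1l read (-1.73 in both), and with edgeR. In light 0 of 8 factors were called in that step (10.6% of genes), and from the morula to the blastocyst 0 of 7 were called in control (13.2%) and 0 of 8 in light (13.3%), by limma as by edgeR. The unadjusted p was under 0.05 in these 3 comparisons for Igf2bp2 (p = 0.00778) and Ybx2 (p = 0.0173) between light morulae and light blastocysts.

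Cnot6l and Ybx2 varied widely among later libraries. Cnot6l spread from 0.730 to 55.5 CPM among the 13 control morulae (median 9.65) and Ybx2 from 0 to 45.2 CPM (median 7.03). In the 6 light morulae, Ybx2 was at 0 in 4 and reached 8.85 CPM in library 12. Ybx2 then had 11.2, 13.9 and 55.2 CPM in the control blastocysts and 1.07 to 20.6 CPM in the light ones. The log2 fold change from light morulae to light blastocysts was 2.16 ± 0.85 (SE, adjusted p = 0.0916, limma) and was called only without light morula 12 (2.64, adjusted p = 0.0346). No other factor of the 8 tested was called in that step with that library left out.

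Cpeb1 and Zfp36l2 varied widely among libraries of single cells at these later stages. Cpeb1 was at 0, 4.41, 19.7 and 42.3 CPM in the 4 control 8-cell libraries, at 0 to 19.3 CPM in the 8 light ones (median 0.224) and at 0 to 23.4 CPM in the 13 control morulae (median 1.08). Zfp36l2 had 3.37, 3.71, 13.2 and 21.1 CPM in control 8-cell libraries and 1.37 to 101 CPM in light ones (median 34.9). It then had 0 to 90.6 CPM in control morulae (median 14.6) and 8.27 to 47.8 CPM in light morulae (median 20.8). Its means in control 8-cell, morula and blastocyst libraries were 35.0%, 80.9% and 38.8% of the control 2-cell mean. In light they were 128%, 80.8% and 142% of the light 2-cell mean, so that Zfp36l2 did not stay low. The groups overlapped in both genes at each of these stages, and no difference was called.

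Cnot7 and Igf2bp2 were present in every library of every stage. The lowest Cnot7 level was 4.92 CPM in control morula 26, and group medians after the 2-cell stage lay between 52.6 and 177 CPM. Igf2bp2 had its highest medians in blastocysts, at 378 CPM in control and 443 CPM in light. Its log2 fold change from the morula was 0.57 ± 0.33 in control (adjusted p = 0.27) and 0.79 ± 0.27 in light (adjusted p = 0.0545), neither called by limma. In the order of the 10 groups by median, no pair of neighbours was free of overlap for Igf2bp2, Zfp36l2, Cpeb1, Zar1l or Pabpn1l. For Btg4, Cnot7 and Zar1 the only such step was that from light 2-cell embryos down to the next group, and for Ybx2 it was that from control to light 2-cell embryos. Cnot6l had both of these steps.

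The factors were set beside other genes of the same pathways, chosen by function but with earlier results of these data known. At the 2-cell stage, of 17 further genes of CCR4-NOT and its adaptors, 2 were called higher in light and 1 lower, beside 12.0% of all genes called. Btg1 rose from 25.6 ± 19.4 CPM (SD, n = 7) to 221 ± 167 CPM (SD, n = 6), and Btg3 rose from 4.71 ± 6.56 to 28.5 ± 14.9 CPM, both of the same family as Btg4. Cnot6, the paralog of Cnot6l, was lower by 1.41 ± 0.44 on the log2 scale (SE, adjusted p = 0.0288, limma). Btg1 was also called higher in light among 4-cell (3.26 ± 0.81) and 8-cell embryos (2.08 ± 0.39).

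Of 33 tested genes of other deadenylases, decapping and exonucleases, 4 were higher in light at the 2-cell stage and 3 lower. The PAN2 and PAN3 deadenylase genes fell together, Pan3 from 1105 ± 250.1 to 352 ± 105 CPM and Pan2 from 335 ± 139 to 131 ± 34.0 CPM, while Xrn2 and Exosc5, of the nuclear exonuclease and the exosome, were higher. Of 26 genes of polyadenylation, poly(A) binding and translational repression, 4 were higher and 3 lower. The cap-binding protein gene Eif4e rose from 301 ± 57.2 to 797 ± 177 CPM, and Eif4e1b, its oocyte paralog, fell from 409.6 ± 185 to 144 ± 65.6 CPM. Of 19 genes of RNA storage and binding, 4 were higher and 1 lower. The paralogs of Ybx2 went in opposite directions, Ybx1 higher by 1.42 ± 0.24 and Ybx3 lower by 2.41 ± 0.40 (log2 scale, SE, adjusted p = 0.000197 and 0.000149, limma). Of 20 genes of uridylation, m6A and AU-rich element binding, Ythdf2, an m6A reader, was the only called gene, and it was higher (1.17 ± 0.27).

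From the 2-cell to the 4-cell stage, the same lists went both ways. In control, 6 of 17 genes of CCR4-NOT and its adaptors were called lower and 1 higher, beside 47.9% of all genes called and 30.2% called lower. Tob2, Nanos1 and Nanos2, which like Btg4 link the complex to messages, were lower by 4.80, 4.67 and 4.52 on the log2 scale, and the scaffold Cnot1 was higher by 1.38. Of 33 decay genes 7 were lower and 9 higher in control. The decapping genes Dcp1a (-3.36 ± 0.38) and Dcp2 (-4.06 ± 0.51) and Pan3 (-3.19 ± 0.35) were lower, and Lsm4 (3.42 ± 0.54), Lsm5 (4.77 ± 0.67) and Exosc5 (2.99 ± 0.58) were higher. The counts were 9 lower and 8 higher of 26 for polyadenylation and repression, 5 lower and 5 higher of 19 for storage and binding, and 2 lower and 2 higher of 19 for uridylation, m6A and AU-rich element binding. In light, where 35.1% of all genes were called and 24.2% were called lower, these lists had 6 lower and 0 higher, 5 lower and 6 higher, 8 lower and 5 higher, 4 lower and 4 higher, and 3 lower and 2 higher. In storage and binding, Igf2bp3, the paralog of Igf2bp2, was lower in control (-4.67 ± 0.62) and in light (-2.30 ± 0.44), unlike Igf2bp2.

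**Figure D5:**
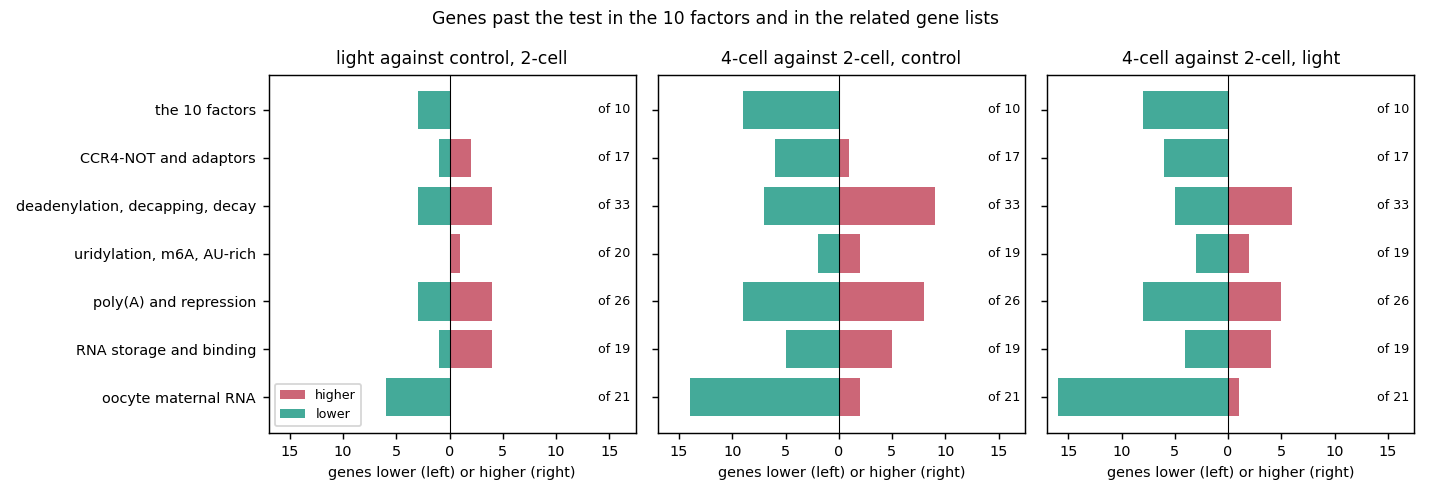
Number of genes called lower (left) and higher (right) among the 10 factors, 5 lists of related genes and a list of oocyte maternal RNA, with the number tested at the right of each bar. From the 2-cell to the 4-cell stage the 10 factors have 9 lower calls in control and 8 in light and none higher, while the list of decay genes has 7 lower and 9 higher in control.

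In oocyte maternal RNA, 14 of 21 genes were called lower and 2 higher from the 2-cell to the 4-cell stage in control, and 16 lower and 1 higher in light. Eif4e1b, which belongs to the list of polyadenylation, poly(A) binding and translational repression, was lower by 5.82 on the log2 scale in control (-5.82 ± 0.47, SE). In light its log2 fold change was -3.63 ± 0.56. Between light and control, the 5 lists of related genes had 2 called genes of 112 tested among 4-cell embryos (2.15% of all genes), each of them higher in light. Among 8-cell embryos they had 12 higher and 4 lower of 110 (8.49% of all genes), and in morulae 1 higher and 2 lower of 112 (1.59%). In blastocysts 0 of 112 were called by limma or edgeR (1.90% of all genes by limma), and 7 had an unadjusted p under 0.05.

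Other cells could have been carried along with the embryos. The protamine and transition protein genes Prm2 and Tnp2 of sperm were at 0 in all 2-cell libraries, as were Inha and Lhcgr of cumulus cells. Others were not at 0 throughout, among them Tnp1 in both groups and Prm1 in control. The summed level of 10 sperm genes was 107 to 263 CPM in control and 111 to 292 CPM in light 2-cell libraries, most of it from Odf2. That of 12 cumulus genes was 29.7 to 84.4 CPM in control and 53.0 to 179 CPM in light, most of it from Amhr2. Of its 7 genes tested, 2 were called higher in light, Amhr2 (means of 40.2 and 103 CPM in control and light) and Tnfaip6 (0.659 and 11.8 CPM). The part of these genes in the 2-cell results was not tested.

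The genes with the most similar pattern were sought among 11456 genes, by Pearson's r of log2(CPM + 1) over the 67 libraries, which share stage, depth and scaling. Btg4 was closest to Zbed3 (r = 0.944) and Spin1 (r = 0.937), and Zar1 to Wee2 (r = 0.929) and Tmem74 (r = 0.929). Ybx2 was closest to Wasf2 (r = 0.837), Zar1l to Mmp19 (r = 0.791), Cpeb1 to Rundc3b (r = 0.770) and Cnot7 to Zdhhc2 (r = 0.783), which overlaps it. Igf2bp2 (Morf4l1, r = 0.653) and Zfp36l2 (Ehd4, r = 0.589) had the lowest values of closest genes, and none was sought for Pabpn1l, whose group means were all under 10 CPM. Among the factors, Btg4 and Zar1 had the highest r (0.901), and Igf2bp2 was below 0 with 8 of the other 9.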

How the data were processed

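The 67 SMART-seq2 libraries were analysed from the deposited table. Per the labels, reads were aligned with HISAT2 and counted with HTSeq 0.9.1, and mm9 is named as the build. The authors deposited signal values. The study's methods describe RPKM, but the values were reads divided by a size factor of each library, with no division by length: at least 99.95% of values were whole reads within 0.01 reads. Values were rescaled in each library to 1000000 over all genes except CT010467.1 and Gm42418, which the deposited size factors follow. Genes above 1 CPM in at least 3 libraries of a fit were tested with limma 3.58.1 in R 4.3.3 (lmFit, eBayes with trend, log2(CPM + 1), pseudocount 1). All libraries of the groups compared entered a fit, with no covariate. In all, 17 comparisons were made: light against control at 5 stages, 8 steps between neighbouring stages and 4 interactions of step and group. Coordinates, exon lengths and 3′ UTRs were taken from GENCODE M21 (GRCm38), 1 transcript per gene.

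The members and gene lists were chosen with earlier results of these data known. The 10 factors were named in every comparison. Of each related list, up to 3 called genes with the smallest p in each direction could be named, and as similar genes the 2 with the highest r, of which those of Cnot6l are not reported here. Scripts were tested on simulated data. Alternatives were the deposited scale, median ratio scaling, edgeR 4.0.16 on the recovered reads (quasi-likelihood test, TMM), a pseudocount of 0.1, no filter, the embryo number as a replicate block and leaving out each library. At the 2-cell stage edgeR called 2115 genes and limma 2164. The closest pair of libraries of each group differed by chi-square per degree of freedom of at least 6.63, so none was a repeat. All columns were mapped to samples.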

Additional observations from a re-analysis of the deposited data

Results flagged for a closer look

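The change from the 2-cell to the 4-cell stage differed between the light and the control group, by the interaction tested in limma, for Btg4 (3.20 ± 0.53 on the log2 scale, SE, adjusted p = 0.000877) and Cnot6l (3.60 ± 0.81, adjusted p = 0.00934). The change from the 4-cell to the 8-cell stage differed for Btg4 in the opposite direction (-3.56 ± 0.74, adjusted p = 0.0031).

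A library stood apart from the others of its group in 10 of 76 groups of values tested (Dixon's criterion). Control morulae and blastocysts, with 13 and 3 libraries, were not tested. Chance gives about 1 in 20 for normally distributed values, but 1 value above 0 among values of 0 always meets the criterion. In 6 of the 10, a few reads stood in this way among libraries at 0: Pabpn1l in control 4-cell library 5 (0.621 CPM) and light 4-cell library 6 (1.87 CPM), Zar1 in control 8-cell library 2 (0.743 CPM), light 8-cell library 6 (0.623 CPM) and light blastocyst 15 (1.18 CPM), and Zar1l in light blastocyst 29 (1.07 CPM). Light 8-cell library 8 stood apart in both Cnot7, at 19.1 CPM below the other 7 (112 to 211 CPM), and Ybx2, at 4.36 CPM above them (0 to 0.696 CPM). Light morula 12 had the lowest Btg4 level of its group (1.77 CPM, the others 7.93 to 15.0 CPM). Light 2-cell library 12 had the lowest Ybx2 level (2.09 CPM, the others 10.8 to 24.6 CPM).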

How the results depend on the processing

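The lower levels of Btg4, Cnot6l and Ybx2 in light 2-cell embryos kept their direction and their call in every alternative that was run and with any 1 library left out (3 called factors throughout), as did the 9 factors lower in control 4-cell embryos. In all, 243 of 275 recomputed counts of called factors were within 1.5 times the main one, and of 588 recomputed values of single factors 540 kept their direction and side of the threshold, 37 lost and 10 gained a call and 1 reversed. Of 112 uncalled values, 40 had the other sign in some alternative. At the 4-cell stage 0 factors were called between the groups on the deposited scale, with edgeR, with a pseudocount of 0.1, without a filter and with the replicate block, against 1, so the call of Btg4 (1.83 to 2.13 in these fits) did not hold. From the 8-cell stage to the morula in control, 0 were called on the deposited scale, with a pseudocount of 0.1 and with the block, against 1. From the 4-cell to the 8-cell stage in light, 2 were called on the deposited scale, with Cnot7 added to Btg4, and 0 with the block, where Cnot7 turned to 0.17. From the 2-cell to the 4-cell stage in light, 0 factors and 0 genes of all were called with the block, in which only 2 embryo numbers were shared, and Btg4 was at -4.61. Elsewhere the block moved no count of factors by over 1.5 times, and it could not be fitted between light and control at the 8-cell and blastocyst stages, from the 2-cell to the 4-cell stage in control and from the morula to the blastocyst in light, for want of shared numbers. The cause of these changes was not tested.

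With 1 library left out, the number of called factors between light and control was between 0 and 1 for 4-cell, between 0 and 2 for 8-cell, 0 in every case for morula and between 0 and 1 for blastocyst libraries. It was 8 to 9 from the 2-cell to the 4-cell stage in light, 0 to 1 from the 4-cell to the 8-cell stage in light, 0 to 1 from the 8-cell stage to the morula in control and 0 to 1 from the morula to the blastocyst in light. Same-numbered libraries of compared groups did not deviate together (correlations of -0.0648 to 0.0542), so the numbers were not read as pairs.

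Counts over all genes moved by over 1.5 times in some comparisons. Between light and control, the 2164 calls at the 2-cell stage were 1146 with the block, the 323 at the 4-cell stage were 152 with edgeR, 212 with a pseudocount of 0.1, 83 without a filter and 0 with the block, and the 268 in blastocysts were 680 on the deposited scale, 164 with edgeR, 121 with a pseudocount of 0.1 and 91 without a filter. From the 4-cell to the 8-cell stage the 254 in control were 847, 151, 92 and 63 on the deposited scale, with the pseudocount, without a filter and with the block, and the 375 in light were 1602, 246, 198 and 6 on the deposited scale, with edgeR, without a filter and with the block. The 2068 between control morulae and blastocysts were 1232 with edgeR. The deposited scale moved the median of all genes by -0.56 and -0.45 (log2) between the 4-cell and 8-cell stages in control and light and by -0.64 between light and control blastocysts, where 45 genes were then higher and 635 lower, against 146 and 122. In morulae these were 54 and 125, against 137 and 120.

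Depth limits the low factors, as 1 read was worth 0.349 to 3.14 CPM. Differences between light and control near or under that level were not detectable. This applies to Pabpn1l after the 2-cell stage and to Zar1 after the 4-cell stage.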
